A study of Bos taurus with 20 samples.

Results

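ISG15 and UBA7, the activating enzyme of the ISG15 conjugation pathway, were represented on the 18KB cDNA array by 13 clones, taken as all clones whose single gene symbol in the array's gene table is ISG15 (12 clones) or UBA7 (1 clone). They are 13 of 1536 clones on that array and of 3072 in the series; the second array, 18KO, holds 0 clones with either symbol. The samples were endometrium, cut from between the caruncles of the caudal uterine horn on the ipsilateral side, from Simmental heifers aged 17 to 22 months. All 10 heifers had been brought into synchronised oestrus with a single injection of the prostaglandin analogue Cloprostenol. The 4 pregnant heifers were inseminated with frozen sperm, carried an intact conceptus and were slaughtered on day 18 of gestation, after which the conceptus was removed. The 6 control heifers received the sperm-free supernatant of semen from the same bull and were slaughtered on day 18 of the oestrous cycle, with no conceptus found. Radioactive (33P) cDNA made from each animal's total RNA was hybridised to spotted PCR products of subtracted cDNA clones, and the 18KB library had been enriched for transcripts more abundant in pregnant animals.

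ISG15 is a small protein of ubiquitin-like domains that type I interferons induce strongly in many cell types. Like ubiquitin, it is attached to other proteins through an enzyme cascade: UBA7 activates ISG15, UBE2L6 accepts it, ligases such as HERC5 transfer it, and the protease USP18 removes it again. In ruminants the conceptus secretes interferon tau, a type I interferon, before it attaches, and ISG15 in the uterus is among its best known targets.

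Both genes were far higher in pregnant endometrium. ISG15, as the geometric mean of its 12 clones, had spot intensities of 48.2 in pregnant heifer 316, 67.6 in 426, 87.5 in 447 and 51.3 in 448. The 6 controls ranged from 1.34 to 8.52 with a median of 1.65. The lowest pregnant animal thus lay above the highest control, and 5 of the controls lay close together, between 1.34 and 1.93, with control 427 well above them. ISG15 was 28.8-fold higher in pregnant animals (95% interval 14.4 to 57.6; log2 fold change 4.85 ± 0.46 SE, 4 pregnant against 6 control animals, limma adjusted p = 3.22e-05).

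UBA7, which loads ISG15 onto the conjugation cascade, had intensities of 16.9 in pregnant 316, 22.7 in 426, 38.9 in 447 and 15.7 in 448. In controls UBA7 ranged from 0.75 to 3.51 with a median of 0.98, and the groups did not overlap. Again 427 was the high control, with the others between 0.75 and 1.25. UBA7 was 18.4-fold higher in pregnant animals (95% interval 9.88 to 34.2; log2 4.20 ± 0.41 SE, limma adjusted p = 3.33e-05). Its value rests on 1 spot per array, where that of ISG15 averages 12. These p-values were adjusted over 1420 features, namely 86 genes and all clones without a single gene name. Of those features 15.6% were called higher in pregnant animals, a call being an adjusted p under 0.01 with a change of at least 2-fold; among the 86 named genes alone the share was 77.9%, and per the series design text the clones given a sequence were chiefly those that differed in these animals. Neither call is therefore independent evidence of its direction.

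**Figure D1:**
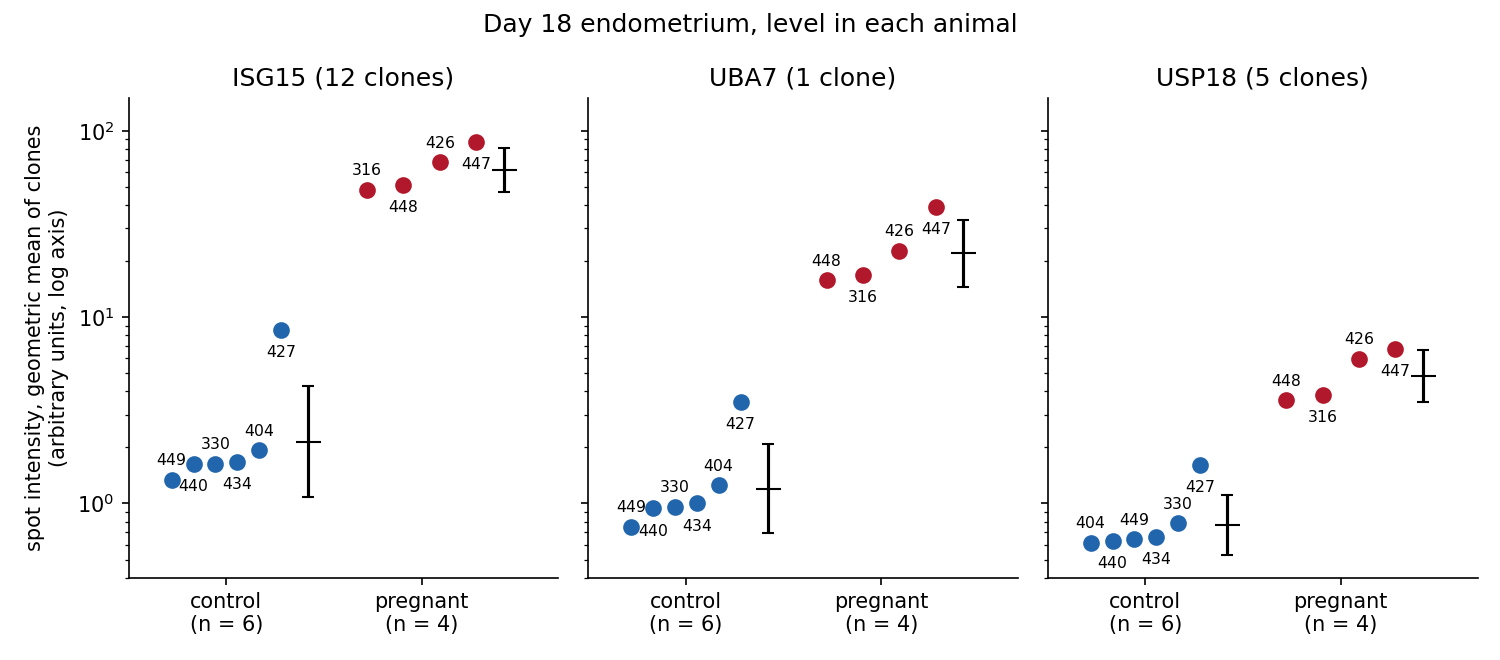
Spot intensity (arbitrary units, log axis; geometric mean over the clones of a gene) of ISG15, UBA7 and USP18 in each of 6 control (blue) and 4 pregnant (red) heifers, with animal numbers; the black mark and bar are the mean ± SD on the log2 scale. Every pregnant animal lies above every control in all 3 genes, as in most of the 86 named genes. Control 427 is the highest control in each of the 3, and in 57.0% of the named genes. Heights are not comparable between genes.

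The columns of intensities did not share a median: on this array the medians were 2.50 to 3.18 in pregnant and 1.39 to 1.90 in control animals. It could not be told from the sources used here whether the authors scaled them. With every column set to the same median, which took 0.83 off each log2 fold change on the array, ISG15 was still called at 4.02 and UBA7 at 3.37. With 1 factor per animal from both arrays they were called at 4.66 and 4.01. On the 18KO array column medians tended the other way, at 1.665 to 2.36 in pregnant and 2.025 to 3.895 in control animals. The 18KB library was enriched for transcripts more abundant in pregnant animals, and which scaling is right was not tested. The median log2 fold change of all 1420 features was 0.38 as deposited.

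Every single clone gave the same direction. All 13 clones were called higher in pregnant animals, against 20.5% of all 1536 clones, with limma adjusted p-values from 9.97e-06 to 6.19e-05. In 13 of 13 clones all pregnant animals lay above all controls, which held for 26.7% of the clones of the array. It also held for most of the 86 named genes, of which 77.9% were called higher. The ISG15 clones share a transcript and the same RNA samples, so these counts are not independent results. The lowest pregnant intensity was 3.91 to 7.43 times the highest control intensity, depending on the clone. The 12 ISG15 clones came from 9 of the 16 plates of the library, so they were not neighbours from a single plate. Only TKDP1 (15 clones), a gene of the trophoblast, and NUPR1 (14), a stress-induced nuclear protein, had more clones among the 86 named genes, and ISG15 made up 5.94% of the 202 clones with 1 symbol.

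The clones of ISG15 differed in the size of the change, from 7.37-fold to 57.7-fold. Clone 03-H11 had 32.7, 52.7, 60.3 and 40.5 in pregnant 316, 426, 447 and 448, and 0.46 to 5.28 (median 0.51) in controls, a log2 fold change of 5.85 ± 0.62. Clone 05-F12, at the other end, had 75.5, 87.1, 103.3 and 70.5 in the same animals and 7.55 to 14.8 (median 12.5) in controls, a log2 fold change of 2.88 ± 0.24. UBA7, at 4.20, fell among them: 8 ISG15 clones had a larger log2 fold change and 4 a smaller one.

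The geometric mean intensity of the 12 ISG15 clones in pregnant animals spanned 36.1 to 83.2, a 2.30-fold range, while in controls it spanned 0.72 to 11.3, a 15.6-fold range. Divided at a control mean of 2, a value chosen after the levels were seen, the 7 clones below it had log2 fold changes of 5.27 to 5.85, and the 5 clones above it had 2.88 to 4.71. Across the 12 clones the log2 fold change correlated with the log2 control level at r = -0.97, and at r = -0.95 without clone 05-F12. This is a description, since the control level enters both quantities and all clones share the same 10 RNA samples. On the linear scale the clones were closer, with a mean difference between pregnant and control animals of 36.4 to 83.7 intensity units, a 2.30-fold range, against a 7.83-fold range of the fold changes. Control levels were small beside pregnant levels, so the linear difference is mostly the pregnant level and its range largely repeats the one above. All member values, the lowest being 0.38, lay above the 10th percentile of the array (0.32), so that no member value sat at the floor of 0.01 used before taking logarithms. Some control spots were still dim, with control medians of 0.455 in 07-C11 and 0.51 in 03-H11. With a pseudocount (a constant added before taking logarithms) of 0.2, their log2 fold changes were 5.22 and 5.46, against 5.64 and 5.85 without it. Spot intensity also depends on the length and amount of the spotted product, so clones are not compared here as levels of transcript.

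**Figure D2:**
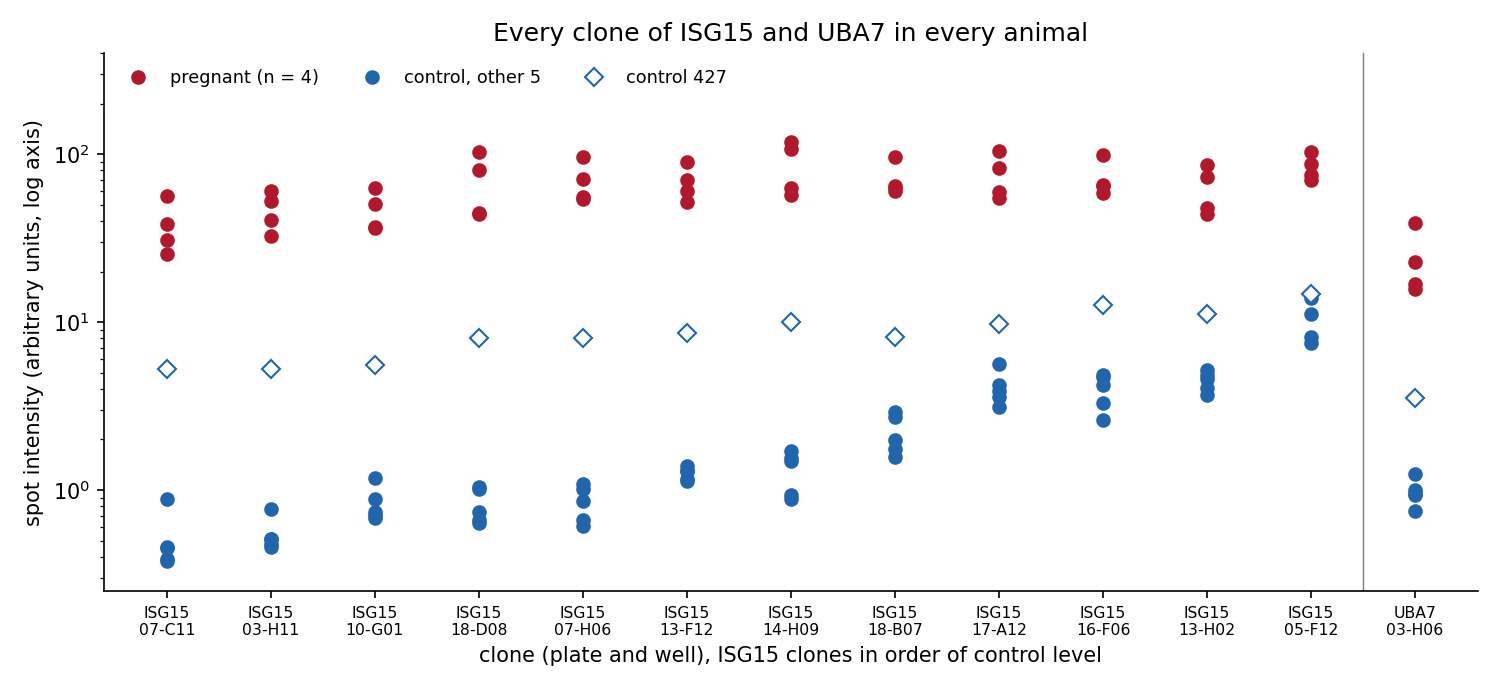
Spot intensity (arbitrary units, log axis) of the 12 ISG15 clones, ordered by their control level, and of the UBA7 clone, in each animal; red, 4 pregnant; filled blue, 5 controls; open diamond, control 427. The climb of the control values from left to right is set by this order. In each of the 13 clones every pregnant value lies above every control, beside 26.7% of all clones of the array. In each of them 427 is the highest control.

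**Figure D3:**
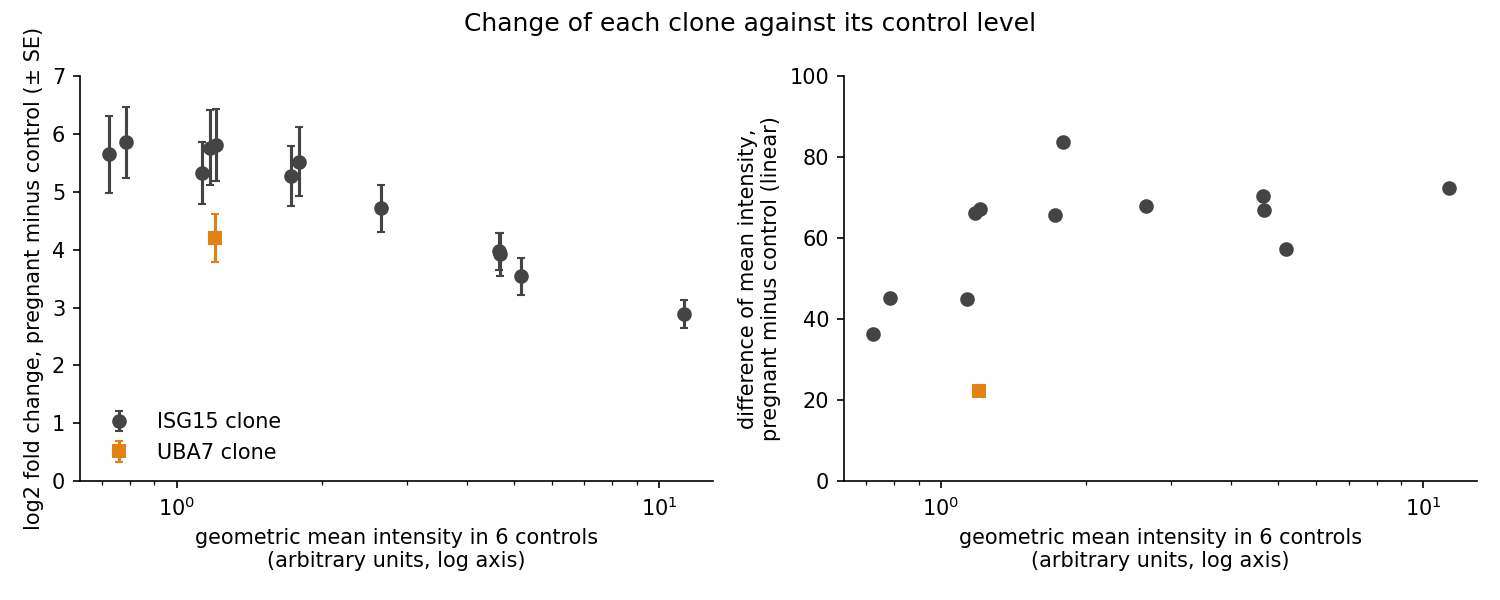
Change of each clone against its geometric mean intensity in 6 controls (log axis): left, log2 fold change ± SE from limma; right, difference of mean intensity on the linear scale. Among ISG15 clones the log2 fold change was 5.64 in 07-C11, with the lowest control level, and 2.88 in 05-F12, with the highest. The largest, 5.85, was that of 03-H11. The linear difference ranged from 36.4 to 83.7 and is mostly the pregnant level. The control level enters both axes.

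Control 427 stood apart from the other controls in both genes. Its ISG15 level of 8.52 was 5.23-fold the geometric mean of the other 5 controls, and its UBA7 level of 3.51 was 3.63-fold theirs. On the log2 scale 427 had thus covered 45.5% of the distance from the other controls to the pregnant mean in ISG15 and 41.2% in UBA7. In the ISG15 clones its excess was 1.38-fold to 10.9-fold, smallest in clone 05-F12 and largest in 07-C11, and on the linear scale 3.70 to 8.71 intensity units. Without 427 the log2 fold change was 5.25 for ISG15 and 4.51 for UBA7, with limma adjusted p-values of 6.31e-08 and 6.98e-07.

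The column of 427 also differed from the other controls in general. Its median (1.90) was the highest of the controls, and it was the highest control in 41.9% of all 1420 features and in 57.0% of the 86 named genes. After column medians were set equal, its ISG15 level was 9.03 against 1.94 to 2.34 in the other controls. Its column, like those of pregnant 426 and 447, held no value at or below 0.01, whereas the other 7 columns held 9 to 16. Within these 3 columns the pregnant animals exceeded 427 by a log2 difference of 3.18 in ISG15 and 3.08 in UBA7, and within the other 7 columns the difference between 2 pregnant and 5 control animals was 4.93 and 4.08. With the 3 columns as a block the log2 fold changes were 4.37 ± 0.29 and 3.76 ± 0.25, both called. Control 427 was 22 months old, as was control 440, whose ISG15 level was 1.63. How 427 came to differ was not tested.

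Among pregnant animals the order of levels was nearly the same from clone to clone. Heifer 447 had the highest value of the 4 in 13 of 13 clones, and 426 the next highest in 12 of 13. Heifers 316 and 448 were lower and close together, at 48.2 and 51.3 in ISG15 and 16.9 and 15.7 in UBA7. No share over all features is given here for this order. The columns of 447 and 426 also had the highest medians (3.18 and 3.05, against 2.71 and 2.50). They held no value at or below 0.01, against 14 in 316 and 16 in 448. With equal medians the spread of ISG15 narrowed to 38.9, 44.7, 55.4 and 38.1 in 316, 426, 447 and 448.

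ISG15 and UBA7 followed each other closely from animal to animal within a group. Over the 6 controls their log2 levels correlated with Pearson's r = 0.991 (two-sided exact permutation p = 0.00139, the smallest that 720 pairings can give) and Spearman's rho = 1 (exact permutation p = 0.00278). These are 2 measures of the same relation, and each p is 0.00278 after Benjamini-Hochberg adjustment over the 2. That adjustment does not cover the rankings of correlations given here. Setting column medians equal gave r = 0.990. Without control 427, r was 0.993 over 5 animals, and without the 2 animals farthest from the ISG15 median, 427 and 449, it was 0.998 over 4, so the relation did not rest on 427. Among all other 1419 features UBA7 had the second highest correlation with ISG15 in controls, where the median was 0.41, and the third highest without 427, where it was 0.26. The 4 pregnant animals are too few for a correlation; in them 447 and 426 led in both genes, and 316 and 448 changed places.

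**Figure D4:**
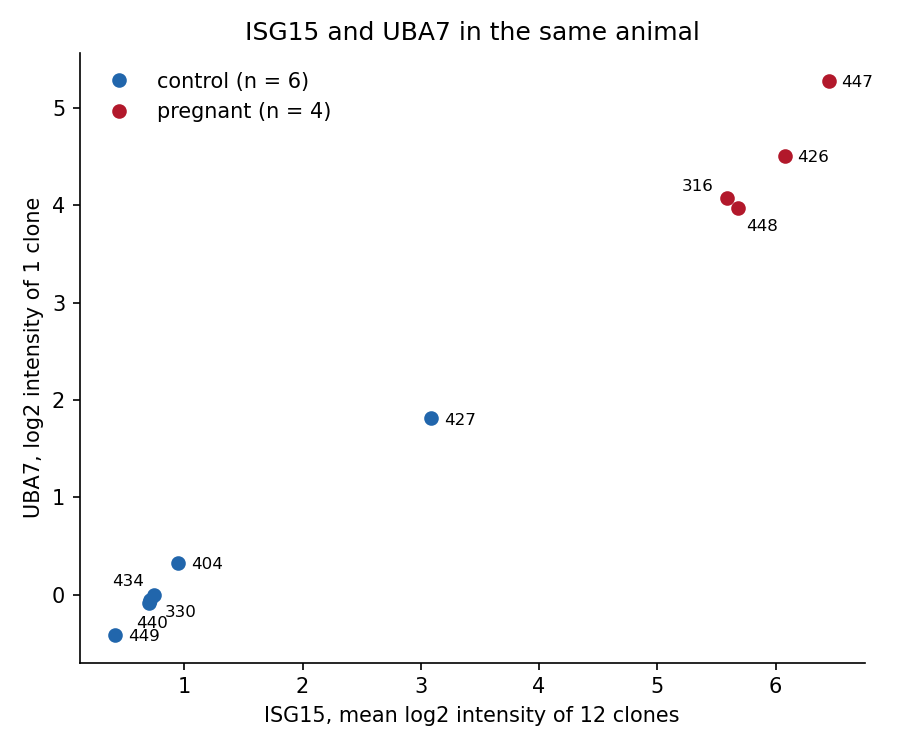
Mean log2 intensity of ISG15 (12 clones) against log2 intensity of UBA7 (1 clone) in the same animal; blue, 6 controls; red, 4 pregnant heifers. The animals lie close to a rising line, with control 427 between the other controls and the pregnant animals.

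The pair did not keep a fixed ratio. The log2 level of ISG15 minus that of UBA7, a difference in which the scaling of a column cancels, was 1.51 in pregnant 316, 1.57 in 426, 1.17 in 447 and 1.71 in 448. In controls it was 0.63 to 0.83 in 5 animals and 1.28 in 427. The means were 1.49 ± 0.23 (SD, n = 4) and 0.84 ± 0.23 (SD, n = 6), so ISG15 gained 0.65 more than UBA7 on the log2 scale, but the groups overlapped, 447 lying below 427. Without 427 the gain was 0.74 and the groups did not overlap. The gain depended on the clones averaged for ISG15 and was -1.32 with its brightest clone, 05-F12, alone, so the order of the 2 responses is not settled by these spots.

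Of 8 listed genes of the ISG15 cascade, 3 had a name on the array, and all 3 were called higher, beside 77.9% of the 86 named genes, so that the count is no result about the cascade. Besides the pair this was USP18, the protease that takes ISG15 off its targets, represented by 5 clones. USP18 had 3.82 in pregnant 316, 5.98 in 426, 6.75 in 447 and 3.57 in 448, and 0.61 to 1.60 (median 0.65) in controls. The groups did not overlap, 427 was the highest control at 1.60, and USP18 rose 6.30-fold (log2 2.65 ± 0.30, limma adjusted p = 7.61e-05; 1.82 with equal column medians). UBE2L6, HERC5, HERC6, ARIH1 and TRIM25 have no named clone here, nor does any of 20 listed genes of ubiquitin and other ubiquitin-like conjugation.

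Of 14 listed genes of interferon signalling only IRF9, the DNA-binding subunit of the factor that type I interferons activate, has a named clone. IRF9 had 1.77, 2.97, 2.88 and 1.98 in pregnant 316, 426, 447 and 448, and 0.48 to 1.53 (median 0.67) in controls, with 427 highest. It rose 3.12-fold (log2 1.64 ± 0.31, limma adjusted p = 0.00189), a call lost with equal column medians (0.81) and quantile normalization (0.82).

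With the clones of each gene averaged and all animals kept, ISG15 and UBA7 had the largest log2 fold changes of the 25 listed interferon-stimulated genes with a named clone. This order depended on the processing: without control 330 RSAD2 (4.19) stood above UBA7 (4.14), and with only the brightest clone of each gene ISG15 (2.88) ranked 9 and UBA7 (4.20) ranked 3 of the 25. All 25 were called higher, beside 15.6% of the 1420 features and 77.9% of the 86 named genes. With equal column medians 21 were called, and IRF9, SHISA5, LGALS3BP and PLSCR2 were not. The median over the other 23 genes was 2.44, beside 0.38 over all features. Next below UBA7 stood RSAD2, an antiviral enzyme, at 4.04 ± 0.54, which is within one SE of UBA7. The control values of RSAD2 ran from 0.06 to 0.56. Their median of 0.18 lay below the 10th percentile of the array (0.32), so its place beside UBA7 rests on dim control spots. The smallest changes were those of SHISA5 (1.64), LGALS3BP, a secreted galectin ligand (1.61), and PLSCR2, a phospholipid scramblase (1.11). The call of PLSCR2 was lost without pregnant 426, 447 or 448 or control 440 or 449, and with 1 factor per animal from both arrays, and that of LGALS3BP without pregnant 426, at 1.46. Control 427 was the highest control in 21 of the other 23 genes, beside 57.0% of the 86 named genes. Heifer 447 was the highest pregnant animal in 15 of the 23, a count for which no share over all features is given. The share of the log2 distance to the pregnant mean that 427 covered was 45.0% in the median of those 23 genes, from 2.23% in PLSCR2 to 74.3% in RTP4, so ISG15 (45.5%) and UBA7 (41.2%) lay near the middle.

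**Figure D5:**
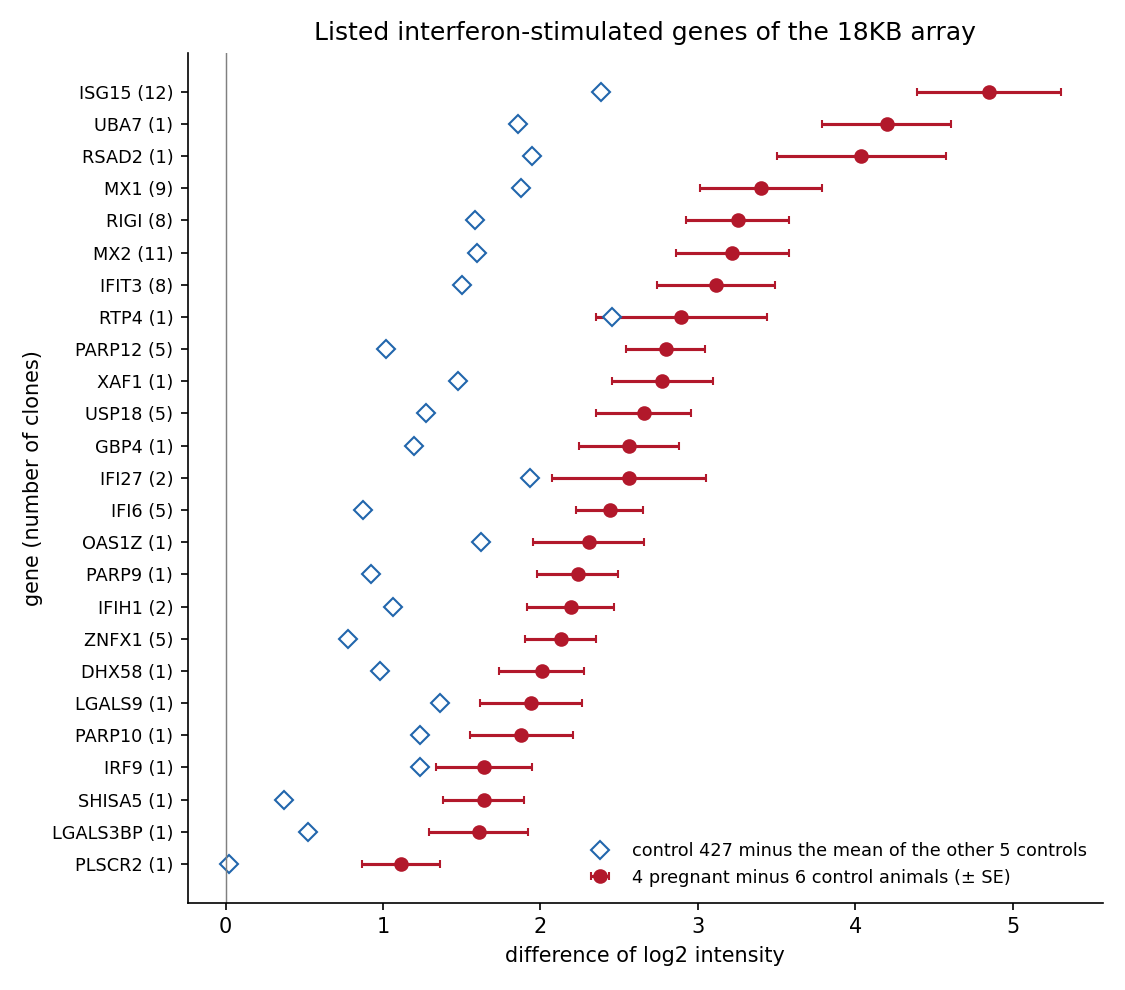
Difference of log2 intensity for the 25 listed interferon-stimulated genes, with clone numbers in parentheses: red, 4 pregnant minus 6 control animals ± SE (limma); open diamonds, control 427 minus the mean of the other 5 controls. ISG15 and UBA7 are at 4.85 and 4.20, in an order that changes without control 330 or with the brightest clones only, and 427 exceeds the mean of the other controls in each gene shown, by 0.02 in PLSCR2 to 2.46 in RTP4.

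The genes most like the pair were ranked by Pearson correlation of deviations from the group means over the 10 animals, across the 85 other named genes. For ISG15 these were RIGI, a sensor of viral RNA (r = 0.976), MX1, an antiviral GTPase (0.972), UBA7 (0.964), the locus LOC509283 (0.937) and XAF1 (0.931), beside a median of 0.49. For UBA7 they were LOC509283 (0.978), ISG15 (0.964), MX1 (0.963), RIGI (0.959) and ZNFX1, a helicase (0.957), beside a median of 0.58. By log2 levels, which hold the group difference as well, the 5 closest to ISG15 were RIGI, UBA7, MX1, ZNFX1 and IFI6, and the 5 closest to UBA7 were ISG15, RIGI, ZNFX1, MX1 and USP18. All these genes were measured on the same hybridisations. Control 427 lay far above the other controls in ISG15 and UBA7 and was the highest control in 57.0% of the named genes. The ranking over 10 animals was not repeated without 427, so how far its correlations rest on that animal is not known. For ISG15 with UBA7 in the controls alone, r was 0.993 over the 5 animals without 427. With equal column medians the deviations of ISG15 and UBA7 correlated at 0.950, with a median over named genes of 0.21 for ISG15.

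The order of the pregnant animals differed between the pair and transcripts of the conceptus. IFNT2, an interferon tau gene of the trophoblast, had 0.59 in pregnant 316, 2.86 in 426, 1.59 in 447 and 6.95 in 448, and 0.38 to 0.68 in controls. TKDP1, a trophoblast Kunitz domain gene, had 0.34, 2.85, 1.43 and 16.1 in the same animals and 0.19 to 0.40 in controls. Heifer 448 was thus highest in both and heifer 316 lay within the control range in both, as it did in TKDP4 (0.52, against 0.34 to 0.71 in controls), although 316 and 448 had nearly equal ISG15 (48.2 and 51.3) and UBA7 (16.9 and 15.7). Of the 3 named trophoblast markers of 14 listed, IFNT2 (limma adjusted p = 0.00797) and TKDP1 (limma adjusted p = 0.00921) were called higher, both close to the limit of 0.01. TKDP4 was not called (2.31 ± 0.74, limma adjusted p = 0.0326). Among the 86 named genes 77.9% were called higher. In all 3 trophoblast markers the groups overlapped. Their mean log2 level was -1.09 to 3.68 in pregnant animals and -1.68 to -0.79 in controls; its part in the change of the pair was not tested.

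The 3 stroma markers with a name on the 18KB array, of 8 listed, are the collagen genes COL1A1, COL1A2 and COL3A1. All 3 were called lower in pregnant animals, beside 9 (0.634%) of the 1420 features. All 9 of these features were among the 86 named genes, so lower calls were less rare among named genes than that share. The clones given a sequence were chiefly those that differed in these animals, per the series design text. The mean log2 level of the 3 collagens was 5.003 to 6.95 in pregnant animals against 7.47 to 8.83 in controls, and 427 was the highest control in all 3. The number of clones called lower on this array depended on scaling, 11 as deposited and 174 with equal column medians, and the 3 collagens were called under both. The 18KO array holds named clones of the same collagens and of the stroma marker NR2F2, a nuclear receptor. There 3.86% of 1475 features were called lower and 0.881% higher by the same rule. COL1A1 (-2.28 ± 0.41) and COL3A1 (-1.73 ± 0.37) were called lower, COL1A2 (-1.73 ± 0.46, limma adjusted p = 0.0251) was not called, and NR2F2 was called higher (1.52 ± 0.33, limma adjusted p = 0.00961), so the stroma markers did not all move one way. The calls of COL3A1 and NR2F2 were lost without pregnant 316, whose 18KO array was hybridised apart from the others (limma adjusted p = 0.0147 and 0.0260). On the same array the smooth muscle markers ACTA2 (-1.41 ± 0.28) and MYLK (-1.58 ± 0.34) were called lower, and the epithelial marker CLDN4 (1.96 ± 0.58, limma adjusted p = 0.0384) was not called as deposited but was with equal column medians (2.29). None of the listed immune or endothelial markers has a named clone on either array. In such bulk tissue, more cells of a type and more RNA per cell cannot be told apart, and the part of cell composition in the change of ISG15 and UBA7 was not tested.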

How the data were processed

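Each deposited column gives an animal's linear spot intensities on an array; background subtraction and scaling by the authors are not given in the sources used here. Per the labels, probes were 33P-labelled cDNA and hybridised together, except the 18KO array of pregnant 316. No scaling was added: values under 0.01 were set to 0.01 and log2 was taken. Clones were named with GEO's annotation of the platform, whose symbols can be outdated; 202 of 1536 clones have 1 symbol, 9 several and 1325 none. ISG15 and UBA7 have the same symbols in RefSeq (ARS-UCD2.0); since no genome build is stated for the clones, coordinates are left out, and promoter and protein sequences were not analysed here. Log2 values were averaged over the clones of a gene. Pregnant and control animals were compared with lmFit and eBayes of limma 3.58.1 in R 4.3.3, over 1420 features (86 genes and every clone without a single name) per clone over 1536 clones and, for markers on the 18KO array, over its 1475 features, with Benjamini-Hochberg adjustment; calls needed an adjusted p under 0.01 and a 2-fold change. The thresholds are those the series design text names. The fit was tested on simulated data with independent normal noise per feature and as many rises as falls. The simulation held no column shifts and no distant animal, so it does not show how the fit handles these traits of the array. Unmapped sample columns numbered 0. Array columns of one group correlated at 0.935 to 0.982, and the number of animals limits precision.

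The members and lists were chosen with earlier results of these data known. Named genes were the pair; the 5 genes closest to each by correlation over 10 animals, of levels and of deviations; listed genes of ISG15 conjugation, interferon signalling and the trophoblast; and the 3 largest and 3 smallest changes of the interferon-stimulated list. Others (TKDP1 and NUPR1 for clone number, RTP4, the collagens and 18KO markers) were named after their values were seen. Plots used matplotlib 3.10.9 (Python 3.11.15). Alternatives concerned scaling, floor, filter, prior, array weights, age, clone averaging, adjustment and leaving out each animal.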

Additional observations from a re-analysis of the deposited data

Results flagged for a closer look

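Values were examined for a highest or lowest animal lying far from its group, by the gap to the nearest animal as a share of the group's range, in 46 groups of 4 pregnant or 6 control animals on the log2 scale; 18 passed the limit for their size, where chance flags about 1 in 20, and the groups are not independent since they share animals. In all 17 control groups that passed, the distant animal was control 427, the highest. The share was 0.801 for ISG15, 0.669 for UBA7 and its single clone 03-H06, 0.747 for USP18, 0.828 for RIGI, 0.63 for MX1 and 0.643 for TKDP1. Of the ISG15 clones, 9 passed: 0.789 for 03-H11, 0.681 for 07-C11, 0.779 for 07-H06, 0.738 for 10-G01, 0.898 for 13-F12, 0.688 for 13-H02, 0.73 for 14-H09, 0.63 for 18-B07 and 0.808 for 18-D08. The difference of ISG15 and UBA7 within an animal passed at 0.684. In pregnant animals 1 group passed, clone 18-B07 with 447 highest (0.852; 96.0 against 60.5 to 64.8).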

How the results depend on the processing

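ISG15 and UBA7 kept their direction and their calls under all 23 alternatives run for each, at log2 fold changes of 2.88 (brightest clone) to 5.28 and of 3.37 (equal column medians) to 4.51, with limma adjusted p-values from 6.31e-08 to 0.000266; leaving out 1 animal gave 4.68 to 5.25 and 3.93 to 4.51. All 13 clones stayed called under 20 alternatives. The difference between the changes of ISG15 and UBA7 was -1.32 with the brightest clone, whose construction sets ISG15 to clone 05-F12, and 0.58 to 0.76 without 1 animal. The correlation in controls was 0.990 to 0.998 in its 3 alternatives (exact permutation p from 0.00139 to 0.0417). Its value without control 427, the difference without 1 animal and the alternatives for 18KO markers were added after seeing the data. Of the 25 interferon-stimulated genes 21 to 25 were called. The split of all called clones depended on scaling: 315 higher and 11 lower as deposited, 152 and 174 with equal column medians, 178 and 139 after quantile normalization; lower clones numbered 22 with 1 factor per animal, 6 with age as covariate, 23 with the columns without values at the floor as a block, and 4 to 14 without 1 animal (4 without pregnant 316 or control 449, 7 without pregnant 448 or control 404), and the cause was not tested. No paired analysis was possible because pregnant and control animals share no number and the pair is on 1 array only. Signal over background is not given in the files, so what it limits is not known.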
